A study of Mus musculus with 4 samples.

Results

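The neuronal nicotinic acetylcholine receptor subunits were followed here as 9 genes of the 32285 genes in the count matrices: *Chrna2*, *Chrna3*, *Chrna4*, *Chrna5*, *Chrna6*, *Chrna7*, *Chrnb2*, *Chrnb3* and *Chrnb4*. They were chosen by name as a gene family, and no threshold on a measured value was applied. All 9 were found by symbol and were described across 14 annotated cell types and 134 neuronal clusters of single-nucleus RNA-sequencing data from the mouse hindbrain. The 7 subunits of muscle and hair-cell receptors were not among them and are given with the other genes of the pathway.

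Nicotinic receptors are pentameric ion channels that open when acetylcholine or nicotine binds. Subunits named alpha carry the main face of the binding site, with *Chrna5* as an accessory alpha subunit that needs partners, and subunits named beta complete the channel. *Chrna7* forms channels on its own that pass much calcium, *Chrna4* with *Chrnb2* forms the common high-affinity receptor of the brain, and *Chrna3* with *Chrnb4* forms the receptor best known from autonomic ganglia. In the dorsal vagal complex, made up of the area postrema, the nucleus of the solitary tract (NTS) and the vagal motor nucleus, nicotinic receptors are known for roles in vagal reflexes and in aversion to nicotine.

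The study asked what happens in the hindbrain when hypothalamic AgRP neurons are activated while POMC neurons are inhibited. AgRP-Gq;POMC-Gi mice carried AgRP-IRES-Cre, POMC-Dre and 1 copy each of the Cre-dependent activating receptor hM3DGq and the Dre-dependent inhibitory receptor hM4DGi, so that the designer receptors were limited to cells with a history of *Agrp* or *Pomc* promoter activity. Control mice are called wild type in the sample labels, while the study's methods describe littermates with the receptor alleles but without the recombinases. All mice were adult, 12 to 20 weeks old and of both sexes. All of them received clozapine N-oxide (CNO) intraperitoneally at 3 mg/kg and were killed 1 h later in the absence of food, so an effect of CNO itself was shared by both groups. Each group had 2 libraries, named replicates 1 and 2. The study counts as many mice as libraries, while its methods and the labels speak of pooling within a condition. The p-values are therefore taken to measure only the spread between these libraries.

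In all, 39461 nuclei passed the authors' quality control and 12539 of them (31.8%) were annotated as neurons, from 2470 to 3696 per library. Neurons held 26860073 to 35583732 unique molecular identifiers (UMIs) per library, with a median of 8704 UMIs per neuron. The annotation matched its markers: *Snap25* was found in 96.3% of neurons and *Mog*, a myelin gene, in 7.29%. The libraries were not uniform. AgRP-Gq;POMC-Gi replicate 2 held 16.2 CPM (UMIs of a gene per 1000000 UMIs of the same nuclei) of *Xist* in neurons against 319 to 541 CPM in the other libraries, and the choroid plexus gene *Ttr* was at 1003 and 580 CPM in both libraries numbered 2 and at 1.49 and 7.53 CPM in both libraries numbered 1. Between 19 and 36 cell barcodes were shared by each pair of libraries.

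The 9 genes lie on 6 chromosomes of the GRCm38 build, and 5 of them sit in tight groups. *Chrna5* (ENSMUSG00000035594, plus strand), *Chrna3* (ENSMUSG00000032303, minus strand) and *Chrnb4* (minus strand) share 67.9 kb at chr9:54980880-55048779, with 2331 bases between *Chrna5* and *Chrna3* and 1591 bases between *Chrna3* and *Chrnb4*. *Chrnb3* and *Chrna6* share 45.2 kb at chr8:27368711-27413944. *Chrna7* (ENSMUSG00000030525) is the longest of them, 114 kb on the minus strand at chr7:63098692-63212569, and *Chrnb2* (ENSMUSG00000027950) spans 18.4 kb at chr3:89746195-89764632. *Chrna4* (ENSMUSG00000027577) lies at chr2:181018380-181043546 and *Chrna2* at chr14:66135039-66152948.

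Upstream sequences are shown for *Chrna3* and *Chrna5*, neighbours on chromosome 9 that were detected in few neurons, and for *Chrna7*, the most widely detected. They come from the RefSeq promoter table (GRCm38.p6), which held 7 windows for 6 of the 9 genes, and only bases before every annotated start are printed, 5′ to 3′ on the gene's strand. Capitals mark the GC box letters GGGCGG on either strand. The positions are chr9:55026563-55026812 (minus strand), chr9:54980630-54980826 (plus strand) and chr7:63212570-63212776 (minus strand).
Chrna3: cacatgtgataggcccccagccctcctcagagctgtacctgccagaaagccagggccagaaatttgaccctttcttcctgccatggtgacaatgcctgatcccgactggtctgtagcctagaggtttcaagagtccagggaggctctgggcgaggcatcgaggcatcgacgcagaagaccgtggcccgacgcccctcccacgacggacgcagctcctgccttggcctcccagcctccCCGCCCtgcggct
Chrna5: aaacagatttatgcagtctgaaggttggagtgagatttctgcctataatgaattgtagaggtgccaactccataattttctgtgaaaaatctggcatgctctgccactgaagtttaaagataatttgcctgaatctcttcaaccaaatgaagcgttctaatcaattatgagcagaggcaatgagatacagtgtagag
Chrna7: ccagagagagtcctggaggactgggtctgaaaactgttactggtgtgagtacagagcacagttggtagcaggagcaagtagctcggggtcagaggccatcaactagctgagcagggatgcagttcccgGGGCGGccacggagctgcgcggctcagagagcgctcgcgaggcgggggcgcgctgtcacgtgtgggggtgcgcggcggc

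In the full windows of 300 bases, the G and C content was 64.3% for *Chrna3*, 70.0% for *Chrna7*, and 41.3% and 65.0% for the 2 starts of *Chrna5*. The GC box occurred once in the windows of *Chrna3*, *Chrna7* and *Chrnb2*, 3 times in that of *Chrna4*, 4 times in the downstream window of *Chrna5*, and not in its upstream window or in that of *Chrnb4*. It was present in 35.7% of all 32851 windows of this length. The E-box form CAGCTG was found in the *Chrnb4* window among the members, against 16.3% of all windows. It did not overlap a GC box, and the matches are a description of letters only.

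The receptor transcripts in hindbrain neurons were dominated by *Chrna7* and *Chrnb2*. Of 7472 subunit UMIs in neurons, 64.9% were from *Chrna7* and 19.5% from *Chrnb2*. *Chrna7* was at 40.6 and 40.9 CPM in the control libraries and 38.5 and 35.9 CPM in the AgRP-Gq;POMC-Gi libraries. *Chrnb2* was at 11.1, 12.0, 12.0 and 11.4 CPM in the same order. Nuclear counts include intronic reads and can rise with gene length, which was not tested here. Per kb of gene span, *Chrnb2* (0.631 CPM per kb) was above *Chrna7* (0.342 CPM per kb), which was above *Chrna4* (0.184 CPM per kb) and *Chrna3* (0.168 CPM per kb). The other 5 subunits were between 0.00392 and 0.0414 CPM per kb.

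A UMI of *Chrna7* was found in 21.8% of neurons, of *Chrnb2* in 10.7%, of *Chrna4* in 4.20% and of *Chrna3* in 2.27%. These shares fell to 0.726% for *Chrnb4*, 0.542% for *Chrna5*, 0.175% for *Chrnb3*, 0.144% for *Chrna6* and 0.0638% for *Chrna2*, whose count rested on 8 nuclei. In oligodendrocytes, which should lack neuronal receptors and served as the background of free RNA, the shares were 0.309% for *Chrna7*, 0.720% for *Chrnb2*, 0.303% for *Chrna4* and 0.143% for *Chrna3*, at a median of 2460 UMIs per nucleus. Thinned to 800 UMIs per nucleus, the shares in neurons were 2.71% for *Chrna7*, 0.949% for *Chrnb2*, 0.351% for *Chrna4* and 0.258% for *Chrna3*, against 0.103%, 0.225%, 0.105% and 0.0462% in oligodendrocytes thinned alike. Most neurons (65.3%) had no UMI of any of the 9 genes, 29.2% had a UMI of 1 subunit, 5.06% of 2 and 0.351% of 3. Nuclei without any had a median of 7743 UMIs and those with 2 subunits a median of 13080 UMIs, so detection moved with depth.

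**Figure D1:**
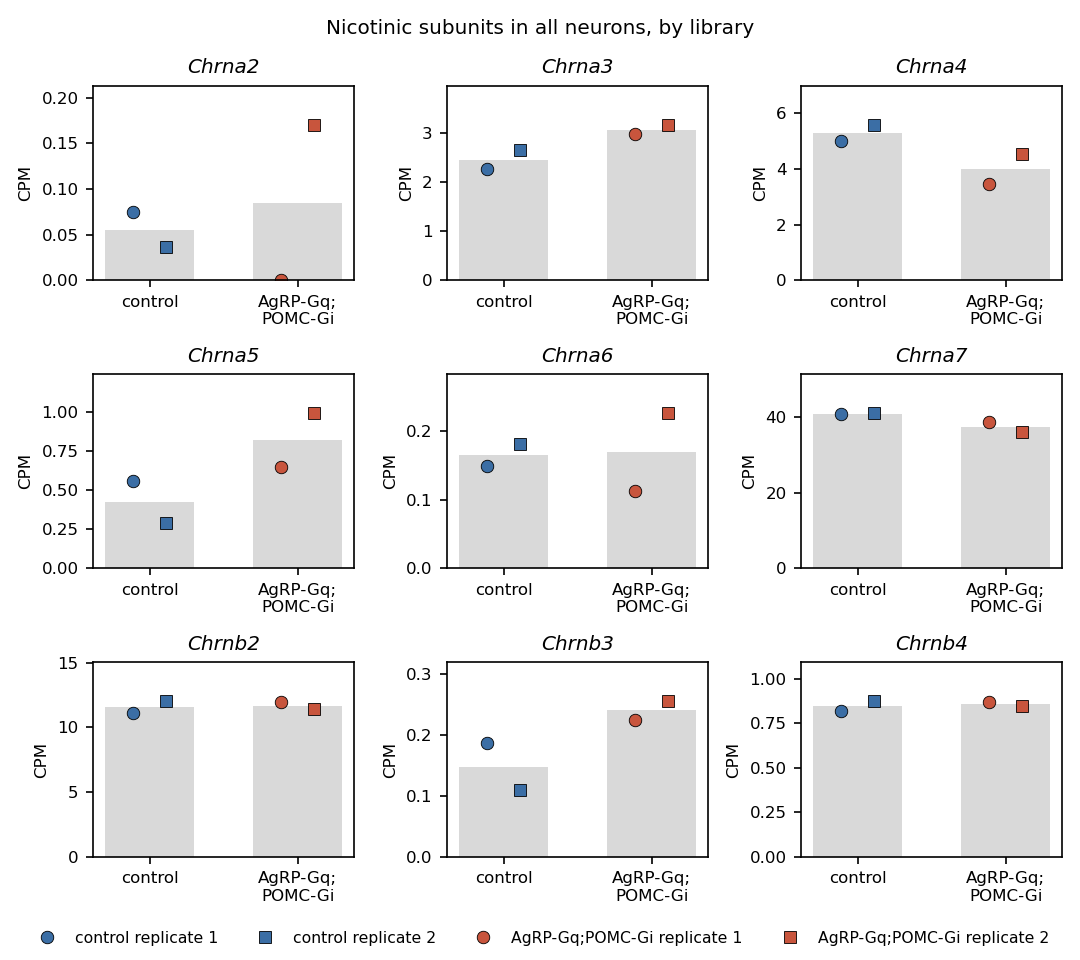
Level of each of the 9 subunits in all neurons, in CPM, for the 4 libraries (points) with the mean of each group (bars); each panel has its own axis from 0. *Chrna7* lay between 35.9 and 40.9 CPM, *Chrnb2* between 11.1 and 12.0 CPM, and *Chrna2*, *Chrna6* and *Chrnb3* stayed under 0.3 CPM in every library.

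Only *Chrna7* and *Chrnb2* had their highest mean CPM in neurons among the 14 cell types. *Chrna7* was also well counted in 2 glial types: oligodendrocyte precursor cells (OPC) held 29.5 ± 7.3 CPM and astrocytes 26.0 ± 7.1 CPM (SD, n = 4 libraries), against 39.0 ± 2.3 CPM in neurons. In the OPC the libraries read 37.2, 20.9, 26.2 and 33.6 CPM, a range that overlapped with neurons at 1 library. In oligodendrocytes *Chrna7* was at 1.05 to 1.62 CPM. The sum of the neuronal markers *Rbfox3*, *Snap25* and *Syt1* was 101 to 179 CPM in astrocytes, 101 to 147 CPM in oligodendrocytes and 340.2 to 379 CPM in OPC, and its part in the level of *Chrna7* was not tested.

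*Chrna4*, the partner of *Chrnb2* in the high-affinity receptor, was at 7.23, 7.45, 4.13 and 9.96 CPM in OPC and at 4.99, 5.58, 3.46 and 4.54 CPM in neurons. The ranges overlapped. A single UMI placed a small immune type (*Ms4a4b*) first for *Chrna4*. *Chrnb2* followed neurons (11.6 ± 0.44 CPM) with the microglial type *Tmem119* at 13.4, 7.62, 11.8 and 4.38 CPM, which rested on 18 UMIs. For *Chrna2*, *Chrna3*, *Chrna5*, *Chrna6*, *Chrnb3* and *Chrnb4* the type of highest mean CPM rested on 1 or 2 UMIs. By raw UMIs, 69.2% of *Chrna2*, 88.4% of *Chrna3* and 91.0% of *Chrna5* counts came from neurons, which gave 61.8% of all UMIs. The *Chrna2* share rested on 9 of 13 UMIs.

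**Figure D2:**
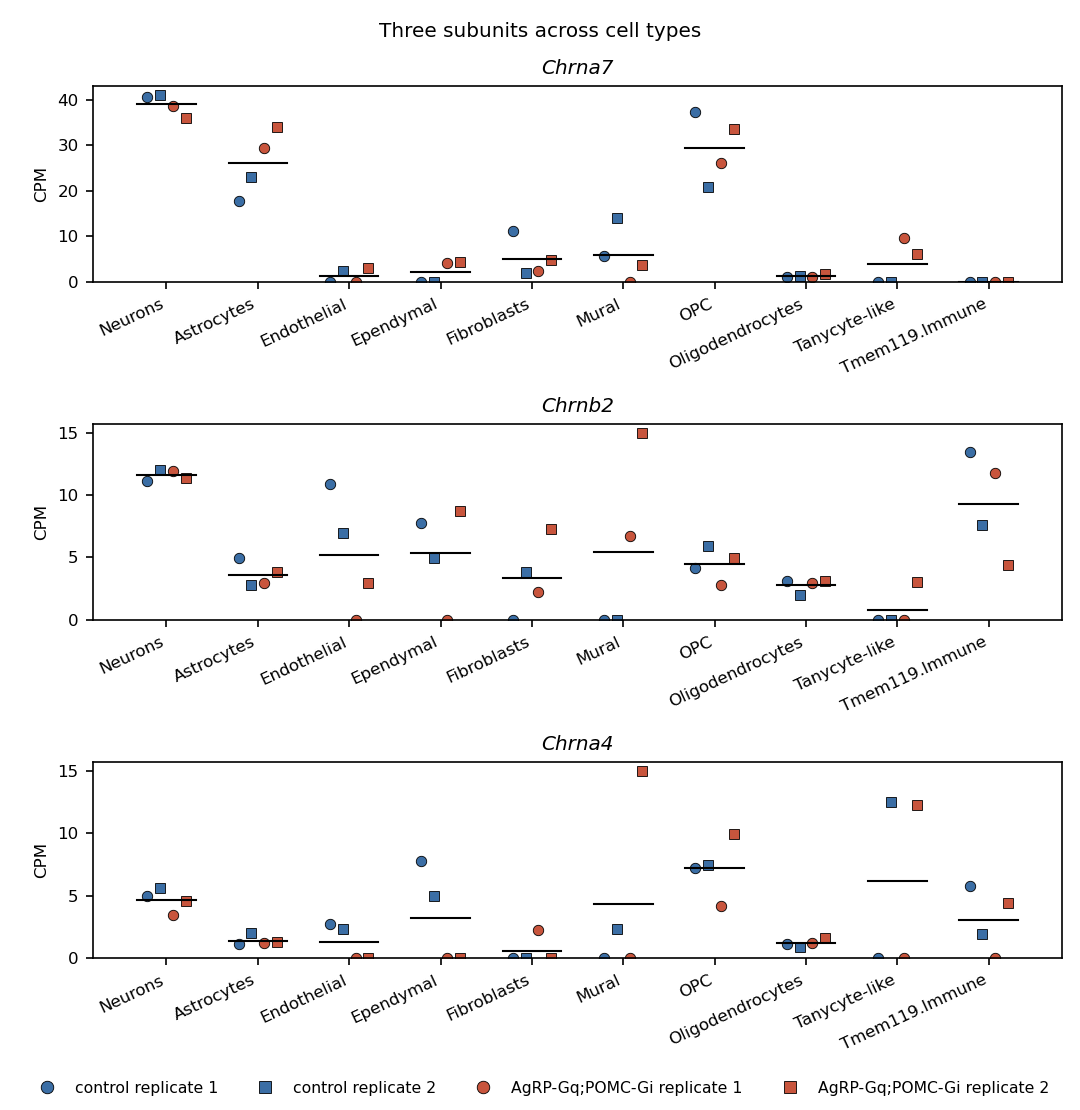
CPM of *Chrna7*, *Chrnb2* and *Chrna4* in the cell types with at least 20 nuclei in each library; points are the 4 libraries and lines their means. *Chrna7* was highest in neurons, OPC and astrocytes (means of 39.0, 29.5 and 26.0 CPM) and near 1 CPM in oligodendrocytes, while *Chrna4* in OPC overlapped with neurons.

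*Chrna7*, the homomeric calcium-permeable subunit, was spread over nearly all neuronal clusters but at very different levels. A UMI was present in at least 10% of nuclei in 102 of 134 clusters, and 25 clusters kept that share after thinning to 2000 UMIs. Clusters carry the authors' numbers and names, and the order of levels was taken over the 120 clusters that held 5 or more nuclei in every library. The highest was cluster 168 (*Rspo2*/*Ntng1*) at 154, 291, 234 and 215 CPM in control replicates 1 and 2 and AgRP-Gq;POMC-Gi replicates 1 and 2, with a UMI in 24 of 43 nuclei (55.8%; exact 95% interval 39.9 to 70.9%). All 4 libraries of this cluster were above every library of the neurons as a whole, which its choice as the highest made likely. In control replicate 2 the level rested on 14 UMIs in 2 of 5 nuclei, and 1 nucleus of the cluster held 11 UMIs.

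Cluster 83 (*Agtr1b*/*Cntnap5b*), an inhibitory cluster at 117 to 155 CPM, was also among the 5 highest, and its range overlapped with that of cluster 168. Clusters 163 (*Adamts18*/*Col25a1*) and 176 (*Dkk2*/*Col25a1*), which hold *Gad2* and *Slc6a5*, came after it with means of 130.2 ± 61.2 and 129 ± 55.1 CPM and overlapped with cluster 83. The median cluster was at 31.1 CPM, so the highest cluster stood 7.19 times above it. It took 24 clusters to reach 50% of the *Chrna7* UMIs, against 9 for *Chrna3* and 4 for *Chrna5*. These genes had 4850, 352 and 81 UMIs in neurons, and the part of these totals was not tested. *Chrna7* reached 18 UMIs in a single nucleus, against at most 4 for any other subunit.

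*Chrnb2*, the beta subunit that pairs with *Chrna4*, was the most even of the subunits with many counts. It reached 10% of nuclei in 70 of 134 clusters and was without a UMI in 1 cluster, but after thinning to 2000 UMIs it reached that share in 0 clusters. The highest cluster, 70 (*Tfap2b*/*Cntnap5b*), read 43.2, 15.0, 35.8 and 13.3 CPM and was 2.59 times the median cluster of 10.3 CPM. Clusters 165, 79, 111 and 65 followed with means of 20.0 to 26.0 CPM, and the ranges of all neighbours in this order overlapped. No order among the leading *Chrnb2* clusters could therefore be given.

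*Chrna4* reached 10% of nuclei in 7 clusters, and in 0 after thinning to 2000 UMIs. Its highest mean, 13.7 ± 15.9 CPM in cluster 173 (*Mecom*/*Oprk1*), rested on 3 UMIs in 2 of the libraries. Clusters with more counts were 94 (*Zfp804b*/*Zmat4*), at 20.9, 10.0, 3.52 and 14.6 CPM from 12 UMIs, and 105 (*Ebf2*/*Calb1*), at 0, 18.6, 18.4 and 12.3 CPM from 8 UMIs. Clusters 133 (*Nxph2*/*Nox4*) and 184 (*Calcr*/*Shox2*) completed the 5 highest with 6 and 2 UMIs. All neighbours overlapped, and no ranked *Chrna4* cluster stood clear of the others. Outside the ranking, because a library held 3 of its nuclei, cluster 170 (*Myo5b*/*Otof*) read 15.6, 37.1, 14.0 and 17.7 CPM from 6 UMIs, a mean above that of every ranked cluster. The 37.1 CPM was 1 UMI in the 3 nuclei of control replicate 2. None of the 5 highest *Chrna4* clusters was among the 5 highest for *Chrnb2*, but the leading clusters of neither gene could be put in order. These *Chrna4* clusters held *Chrnb2* at means of 6.81 to 12.0 CPM.

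The subunits of the chromosome 9 group were concentrated in few clusters. *Chrna3*, the alpha subunit of ganglionic receptors, was highest in cluster 97 (*Gfral*/*Sctr*) at 29.5, 58.5, 39.7 and 10.6 CPM, with a UMI in 17 of 101 nuclei (16.8%; exact 95% interval 10.1 to 25.6%). *Gfral* encodes the receptor for GDF15 and marks area postrema neurons, and the cluster held 316 CPM of it. Cluster 143 (*Kcnq5*/*Hs3st4*) read 52.3, 16.9, 15.5 and 50.2 CPM, and cluster 153 (*Lmo3*/*Cpne4*) read 31.0, 44.2, 16.4 and 20.5 CPM. In these 3 clusters every library held *Chrna3*, and their ranges overlapped. The median cluster was at 0.885 CPM.

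Cluster 116 (*Prph*/*Slc5a7*) was next for *Chrna3*, with 0 and 14.1 CPM in the control group and 25.9 and 56.1 CPM in the AgRP-Gq;POMC-Gi group. It held 164 CPM of *Chat*, which makes acetylcholine, and 282 CPM of the choline transporter *Slc5a7*, and was the cluster with the most *Chrna3* UMIs of these (40 UMIs, 21 of 82 nuclei). The fifth, cluster 146 (*Rxfp1*/*Ebf2*), rested on 4 UMIs. Cluster 154 (*Olfr78*/*Calcr*) was outside the ranking because a library held 3 of its nuclei, and is named here after its values were seen. It read 59.2, 100.2, 69.7 and 78.4 CPM, with a UMI of *Chrna3* in 24 of 53 nuclei (45.3%; exact 95% interval 31.6 to 59.6%). No other cluster had a larger share of *Chrna3* nuclei.

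*Chrna5*, the accessory subunit, was highest in cluster 143 at 69.7, 8.43, 19.4 and 35.9 CPM, where 13 of 60 nuclei held a UMI. Its next ranked clusters were at 7.91 CPM or less and overlapped with it in range. In cluster 154 *Chrna5* was listed at 0 in both control libraries, which held 3 and 4 nuclei, and read 21.4 and 33.6 CPM in the AgRP-Gq;POMC-Gi group. *Chrnb4*, the beta subunit of ganglionic receptors, was highest in cluster 97 at 14.8, 21.9, 21.4 and 3.53 CPM, followed by clusters 127 (*Dach1*/*Unc5d*), 153, 116 and 65 with overlapping ranges. These levels rested on 12 UMIs in cluster 97, 8 in 127, 3 in 153, 11 in 116 and 6 in 65. *Chrnb4* had 107 UMIs in all neurons and none in 101 of 134 clusters. In cluster 154 it read 29.6, 33.4, 16.1 and 28.0 CPM, and 9 of 53 nuclei held it.

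A UMI of *Chrna3* was present in at least 10% of nuclei in 5 clusters, namely 97, 116, 143, 153 and 154, and after thinning to 2000 UMIs in 1, cluster 154 (14.8%), with the others at 5.22 to 6.79%. The 5 clusters held 350 neurons, or 2.79% of all neurons. They gave 35.8% of the *Chrna3* UMIs, 49.4% of the *Chrna5* UMIs and 34.6% of the *Chrnb4* UMIs. Because the clusters were picked by *Chrna3*, its own share there was bound to be high. Cluster 116 was the cholinergic one, and the other clusters were glutamatergic by *Slc17a6*. Of the 5 highest clusters of *Chrna3*, 3 were also among the 5 highest of *Chrnb4* and 2 among those of *Chrna5*, and 0 among those of *Chrna7*.

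**Figure D3:**
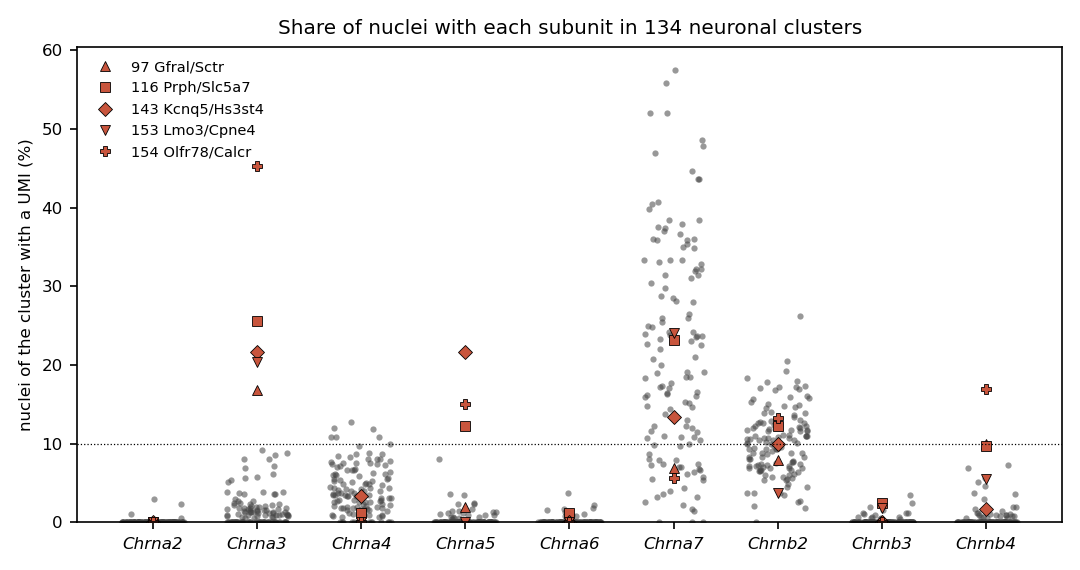
Percentage of nuclei with a UMI of each subunit in the 134 neuronal clusters (grey points), with the 5 clusters at or above 10% for *Chrna3* (unthinned) marked in red; the dotted line is at 10%, and points are spread sideways only for visibility. *Chrna7* covered a range up to 57.5%, *Chrnb2* one up to 26.2%, and *Chrna5* and *Chrnb4* lay above 10% only in marked clusters.

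Across the 120 clusters, *Chrna3* and *Chrnb4* had the most similar levels of any pair of subunits. Pearson's r of log2(mean CPM + 5) was 0.67 and Spearman's rho was 0.40, and within single libraries r was between 0.52 and 0.59. Among the 17851 genes detected in 5% or more of the nuclei of some cluster, each was the most similar gene to the other. Clusters share libraries and depth, so these values are given as a description. Without the 5 clusters highest in *Chrna3*, an alternative chosen after seeing the data, r was 0.49 over 115 clusters. *Chrna3* with *Chrna5* gave r = 0.43, which was 0.14 without those clusters and ranged from 0.067 to 0.47 in single libraries. *Chrna5* with *Chrnb4* gave r = 0.30, which was 0.20 without control replicate 1 and ranged from 0.013 to 0.40 in single libraries. *Chrna3* with *Chrna4* gave r = -0.27, which was -0.18 without AgRP-Gq;POMC-Gi replicate 2 and ranged from -0.22 to -0.023 in single libraries. *Chrna4* with *Chrnb2* gave r = 0.01 and *Chrna3* with *Chrna7* gave r = -0.09.

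Detection in the same nucleus was read for these pairs too. Of the 91 neurons with a UMI of *Chrnb4*, 23 also held *Chrna3* (25.3%), while 2.27% of all neurons did. Of the 68 neurons with *Chrna5*, 19 held *Chrna3* (27.9%) and 7 held *Chrnb4* (10.3%, against 0.726% of all neurons). These pairs were few in number. The genes also shared clusters. The 5 clusters named above, picked by *Chrna3*, held 35.8% of the *Chrna3*, 49.4% of the *Chrna5* and 34.6% of the *Chrnb4* UMIs. The part of shared clusters in the contrast with all neurons was not tested. For *Chrna4* and *Chrnb2* the contrast was small: 66 of 527 *Chrna4* neurons held *Chrnb2* (12.5%), against 10.7% of all neurons. *Chrna7* was found in 22.8% of *Chrna3* neurons and in 21.8% of all neurons. Neurons with these subunits were deeper than the rest, with medians of 9102 UMIs (*Chrna5*) to 12283 UMIs (*Chrna4*).

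**Figure D4:**
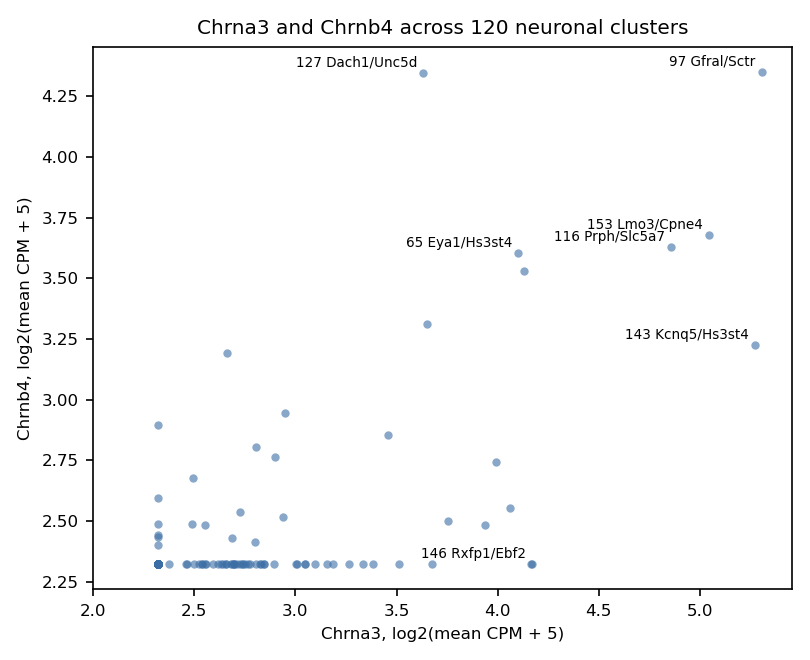
Levels of *Chrna3* and *Chrnb4*, as log2 of the mean CPM over 4 libraries plus 5, in 120 neuronal clusters (points), with leading clusters named. Pearson's r was 0.67. Clusters 97, 153 and 116 were among the 5 highest of both, with 12, 3 and 11 UMIs of *Chrnb4*. Cluster 127 was high mainly in *Chrnb4*, from 8 UMIs, and 143 mainly in *Chrna3*. Many clusters lay on the floor of *Chrnb4*.

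The genes most like the other subunits over the same 120 clusters had lower r. For *Chrna4* they were *Thy1*, *Vamp1*, *Kcnab3*, *Fat3* and *Prelid3a*, with r of 0.45 to 0.49. *Vamp1* encodes a synaptic vesicle protein and *Kcnab3* a potassium channel subunit. For *Chrna7* they were *Gm32014*, *Gm14820*, *Tmeff1*, *Smurf2* and *Trpc6*, with r of 0.46 to 0.48, and for *Chrnb2* they were *Gm10419*, *Bud31*, *Htr7*, *Atcay* and *Olfr374*, with r of 0.37 to 0.42. *Chrna5* was followed by *Cilp* (r = 0.44), *Chrna3*, *Gm41030*, *Dsc3* and *Fkbp9*. *Chrna5* had 81 UMIs in neurons and none in 107 of 134 clusters. Spearman's rho with these genes ran from 0.03 for *Dsc3* to 0.27 for *Cilp*. After *Chrnb4*, *Chrna3* was followed by *Tekt2*, *Gm42756*, *Gm36693* and *Gm29398*. After *Chrna3*, *Chrnb4* was followed by *Bace2* (r = 0.51), *Gm29398*, *Adora2a* and *Sctr*, the secretin receptor gene that gives cluster 97 its name.

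*Chrna2*, *Chrna6* and *Chrnb3* were near the limit of detection, with 9, 21 and 25 UMIs in all neurons. *Chrna2* was absent from 130 clusters, and 6 of its 9 UMIs fell in cluster 42 (*Mylk*/*Mctp2*), all in AgRP-Gq;POMC-Gi replicate 2. *Chrna6*, best known from midbrain dopamine neurons, had its highest mean in cluster 63 (*Ebf2*/*Th*) with 4 UMIs in 3 of 139 nuclei. *Chrnb3*, its usual partner, had 3 UMIs in cluster 146. None of the 3 reached a share of 5% in any cluster, and the genes most like them rest on so few counts: *Gm13021*, *E130310I04Rik*, *Gucy2f*, *Tlr5* and *Gm50445* for *Chrna2*, *Samd3*, *Ano1*, *Podn*, *Gm48346* and *Gm11574* for *Chrna6*, and *Slco1a5*, *Gm36660*, *Vmn2r90*, *Mup6* and *Ddx60* for *Chrnb3*.

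By transmitter, *Chrna7* and *Chrna3* split in opposite ways between glutamatergic and GABAergic clusters. Clusters were called glutamatergic (69) or GABAergic (46) where *Slc17a6* or *Slc32a1* was at least 4 times the other. The GABAergic class was not free of the glycine marker *Slc6a5*. Its clusters among the 5 highest of any subunit held 53.1 to 245 CPM of it. *Chrna7* was higher in GABAergic neurons in all 4 libraries: 46.9, 47.9, 45.8 and 40.9 CPM, against 36.0, 36.2, 32.3 and 31.0 CPM in glutamatergic neurons. The ranges did not overlap. *Chrna3* went the other way, with 1.19, 1.44, 0.979 and 1.56 CPM in GABAergic and 2.79, 3.49, 4.27 and 3.22 CPM in glutamatergic neurons. The 7 mixed clusters held 42.4 ± 2.6 CPM of *Chrna7* and 2.73 ± 0.81 CPM of *Chrna3*. The 12 not called, with under 20 UMIs of both genes, held 36.5 ± 8.9 and 11.2 ± 10.5 CPM. Of their 46 *Chrna3* UMIs, 40 were in cluster 116. Cluster 168, the highest for *Chrna7*, was glutamatergic, with 96.0 CPM of *Slc17a6* and 2.44 CPM of *Slc32a1*. *Chrnb3* had 21 UMIs in glutamatergic and 1 in GABAergic neurons. *Chrna4* (4.78 ± 0.74 against 4.76 ± 1.20 CPM) and *Chrnb2* (11.4 ± 0.82 against 12.4 ± 0.80 CPM) overlapped between the classes.

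Other genes of the pathway were read from 4 lists of 29 genes. Of the 7 other nicotinic subunits, which form muscle or hair-cell receptors, *Chrnb1* was the most abundant in neurons at 6.84 ± 0.72 CPM and *Chrnd* was at 0.0163 CPM. Among acetylcholine genes, *Ache*, which breaks acetylcholine down, was at 42.2 ± 2.9 CPM and *Chat* at 5.22 ± 0.49 CPM. Of the assembly factors and Ly6-type modulators, the chaperone *Ric3* was at 69.9 ± 1.9 CPM, and *Lynx1*, which lowers receptor sensitivity, was at 61.5 ± 7.4 CPM. The Ly6-type genes *Ly6h*, *Lypd6b*, *Ly6e* and *Lypd1* were at 136.8 ± 15.8, 38.3 ± 3.6, 18.0 ± 0.57 and 13.9 ± 1.8 CPM. Over the 120 clusters *Lynx1* gave r = 0.31 with *Chrna4* and r = -0.36 with *Chrna3*, and *Ache* gave r = 0.26 with *Chrna7*. The r of *Ric3* with the subunits lay between -0.22 and 0.17. *Lypd6b* gave r = -0.25 with *Chrna3* and r = 0.24 with *Chrna4*, *Ly6h* gave r = 0.20 with *Chrna3* and r = 0.23 with *Chrnb3*, *Lypd1* gave r = 0.21 with *Chrna7*, and the r of *Ly6e* with the subunits lay between -0.15 and 0.06. *Lmx1b*, at 16.0 ± 1.7 CPM, was the only one of the 9 hindbrain transcription factors listed with a mean of at least 10 CPM, and gave r = 0.29 with *Chrnb3*.

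Between the groups, no subunit was called in neurons as a whole. The groups also differed in measures of the whole libraries: neurons were 25.4% and 27.2% of nuclei in control and 38.0% and 36.5% in AgRP-Gq;POMC-Gi, the summed oligodendrocyte markers in neurons were at 233 and 197 against 115 and 145 CPM, and the median mitochondrial percent of neurons was 0.106 and 0.123 against 0.0660 and 0.0936. *Xist* in neurons was at 507 and 319 CPM in control and at 541 and 16.2 CPM in AgRP-Gq;POMC-Gi. Sex entered no comparison as a covariate. The part of these measures and of sex in any difference between the groups was not tested. Of the 9, 2, namely *Chrna7* and *Chrnb2*, were detected in 5% or more of all neurons and entered the edgeR quasi-likelihood test with Benjamini-Hochberg adjustment over 12115 genes, of which 0 (0%) were called at an adjusted p under 0.05 and 667 (5.51%) had an unadjusted p under 0.05. *Chrna7* had a log2 fold change of -0.07 ± 0.09 (SE; adjusted p = 0.877), and *Chrnb2* had 0.07 ± 0.12 (adjusted p = 0.906). Neither had an unadjusted p under 0.05, and DESeq2 called neither, with 10 calls over all genes. Without AgRP-Gq;POMC-Gi replicate 1, *Chrna7* had an unadjusted p of 0.0296 (adjusted p = 0.425 by edgeR), and without replicate 2 of that group its log2 fold change turned to 0.03. With the filter on genes dropped, all 9 were tested and 0 were called; the smallest unadjusted p was 0.0437 for *Chrna5* (log2 fold change 1.00 ± 0.41, adjusted p = 0.867).

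The raw levels of 5 subunits did not overlap between the groups (62.5% of the 8 with 10 or more UMIs, against 36.8% of the 22919 genes that had 10 or more UMIs in neurons, with 24.6% lower). *Chrna3* (2.27 and 2.66 against 2.98 and 3.17 CPM), *Chrna5* (0.558 and 0.292 against 0.646 and 0.992 CPM) and *Chrnb3* were higher in the AgRP-Gq;POMC-Gi group, and *Chrna4* and *Chrna7* were lower. The share of each cluster in the neurons also differed between libraries. With each cluster held at its share of all neuronal UMIs, the log2 ratio of the mean CPM of *Chrna3* went from 0.32 to -0.15, that of *Chrnb4* from 0.02 to -0.57 and that of *Chrna5* from 0.95 to 0.41. That of *Chrna4* stayed at -0.40 and that of *Chrna7* went from -0.13 to -0.09. Cluster 154, high in *Chrna3*, had 3 and 4 nuclei in control and 25 and 21 in AgRP-Gq;POMC-Gi libraries, and cluster 116 had 9, 17, 24 and 32. Clusters with few nuclei in a library entered these weights too. In cluster 154 the control values rested on 2 and 3 UMIs of *Chrna3* and on 1 UMI of *Chrnb4* in each library. The part of the cluster shares in the differences between the groups was not tested.

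In single clusters, 285 pairs of cluster and subunit from 6 subunits could be tested, and 0 were called by edgeR, against 0.0387% of all 1396489 tests of a gene in a cluster. An unadjusted p under 0.05 was found for 15 pairs (5.26%), against 4.51% of all tests, and DESeq2 gave 0 calls and 1 such pair. The raw levels did not overlap between the groups in 88 pairs (30.9%), against 33.6% of all tests. *Chrna7* gave 11 of the 15, from 111 pairs tested, and 5 of the 11 were higher in AgRP-Gq;POMC-Gi. *Chrnb2* gave 2 from 111 pairs, and *Chrna3* and *Chrna4* gave 1 each from 14 and 41 pairs. The lowest unadjusted p was for *Chrna7* in cluster 90 (*Pou4f1*/*Klhl1*), at 56.2 and 72.0 against 23.9 and 16.9 CPM (log2 fold change -1.60 ± 0.45 by edgeR, unadjusted p = 0.00139, adjusted p = 0.580). Next was *Chrna7* in cluster 129 (*Bnc2*/*Ebf2*), at 64.5 and 46.8 against 0 and 4.55 CPM (adjusted p = 0.987 by edgeR), from 7, 2, 0 and 1 UMIs. The fifth was *Chrna4* in cluster 133, at 32.6 and 14.3 CPM in control and 0 in both other libraries (adjusted p = 0.996 by edgeR), from 5 and 1 UMIs in control.

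The pairs ranked between these both fell in the cholinergic cluster 116. *Chrna7* read 7.83 and 9.39 CPM in control against 36.7 and 40.4 CPM in the AgRP-Gq;POMC-Gi group (log2 fold change 2.21 ± 0.74, adjusted p = 0.269 by edgeR), and *Chrna3* read 0 and 14.1 against 25.9 and 56.1 CPM (2.30 ± 0.77, adjusted p = 0.269 by edgeR). These values rested on 1 and 2 against 17 and 18 UMIs of *Chrna7*, and on 0 and 3 against 12 and 25 UMIs of *Chrna3*. The groups did not overlap for either gene, as for 33.6% of all tests in single clusters, and neither passed the test. With all 4 libraries, the adjusted p over the edgeR alternatives ran from 0.241 to 0.436 for *Chrna7* and from 0.137 to 0.469 for *Chrna3*. With 1 library left out, the log2 fold change ran from 2.13 to 2.39 for *Chrna7* and from 1.64 to 6.84 for *Chrna3*. The 6.84 was without control replicate 2, where the remaining control library held 0 UMIs of *Chrna3*. In the same cluster *Tbx20*, a transcription factor of cranial motor neurons and the only gene of the 4 lists called in any single cluster, rose from 23.5 and 23.5 CPM to 47.5 and 199.8 CPM (log2 fold change 2.47 ± 0.56, adjusted p = 0.0290 by edgeR, where 0.279% of 12886 genes were called). The call was lost without AgRP-Gq;POMC-Gi replicate 2 (adjusted p = 0.984), without TMM factors (0.117) and with edgeR's filterByExpr (0.375), and DESeq2 gave it no adjusted p (unadjusted p = 0.00562).

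Detection of *Chrna3* and *Tbx20* overlapped in part. *Tbx20* had a UMI in 2 of 9 and 3 of 17 nuclei of cluster 116 in control and in 10 of 24 and 19 of 32 nuclei in AgRP-Gq;POMC-Gi libraries. Of the 34 nuclei with *Tbx20*, 16 held *Chrna3*, 13 held *Chrna7* and 7 held *Chrnb4*, and of the 48 nuclei without it 5, 6 and 1 did. Of the acetylcholine genes, *Slc5a7* was found in 30 of 34 and 36 of 48, *Chat* in 26 and 36, *Ache* in 15 and 18, *Slc18a3* in 9 and 6, and *Bche* in 8 and 2. Nuclei with *Tbx20* had a median of 17946 UMIs and those without 11340 UMIs. Whether the make-up of the cluster or its depth has a part in the difference of *Chrna3* and *Chrna7* was not tested.

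**Figure D5:**
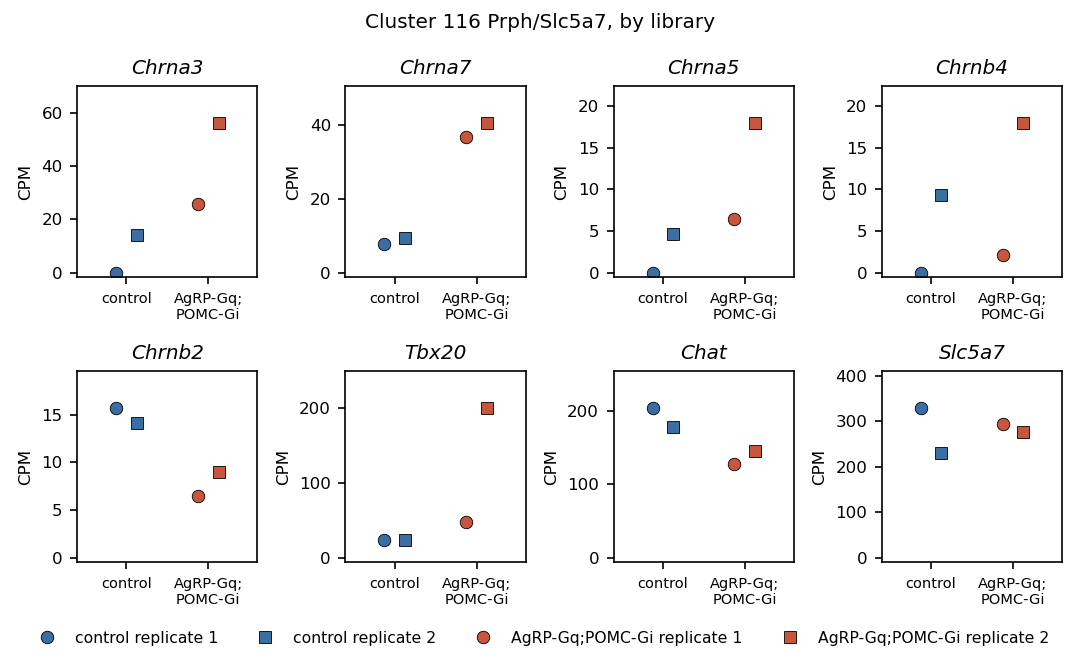
CPM of 5 subunits and of *Tbx20*, *Chat* and *Slc5a7* in cluster 116 for the 4 libraries (points); each panel has its own axis. *Chrna3*, *Chrna5*, *Chrna7* and *Tbx20* were higher in both AgRP-Gq;POMC-Gi libraries than in both control libraries. *Chrnb2* and *Chat* were lower in both, and *Chrnb4* and *Slc5a7* overlapped between the groups. Over all single clusters, the groups did not overlap in 33.6% of the tests of a gene. *Chrna5* rested on 0 and 1 UMIs in control and 3 and 8 UMIs in the AgRP-Gq;POMC-Gi group.

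Among the other cell types, *Chrna7* in astrocytes and in OPC were the 2 pairs that could be tested, and 0 were called, against 0.126% of all 88959 tests in these types. That in astrocytes had an unadjusted p under 0.05, against 5.73% of all these tests. In astrocytes it read 17.7 and 23.1 CPM in control against 29.3 and 34.0 CPM in the AgRP-Gq;POMC-Gi group, from 82 to 134 UMIs per library, and the groups did not overlap, as for 37.4% of the genes tested there. The log2 fold change was 0.68 ± 0.18 (unadjusted p = 0.00278, adjusted p = 0.141 by edgeR), while 0.626% of 8462 astrocyte genes were called and 10.3% had an unadjusted p under 0.05. The call depended on the fit: by edgeR, the adjusted p was 0.00777 with the replicate number as a block, 0.0252 without the filter on genes and 0.822 without control replicate 1. The astrocyte markers *Gja1* (343 to 377 CPM) and *Slc1a2* (2970 to 3443 CPM) overlapped between the groups, while *Aqp4* read 353 and 320 against 446 and 441 CPM, and its part in the difference was not tested. In OPC *Chrna7* overlapped between the groups (log2 fold change 0.03 ± 0.33, adjusted p = 0.997 by edgeR). *Chrna4* in oligodendrocytes was under the filter and read 1.13 and 0.838 CPM in control against 1.16 and 1.62 CPM, which did not overlap, as for 34.9% of the 18246 genes with 10 or more UMIs there.

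Of the 29 other pathway genes, 12 could be tested in neurons as a whole and 0 were called by edgeR, with 0 at an unadjusted p under 0.05. In other cell types 0 of 47 tests were called, against 0.126% of all tests, and 3 had an unadjusted p under 0.05, against 5.73%. In single clusters 1 of 1169 tests was called, that of *Tbx20*, against 0.0387% of all tests, and 63 had an unadjusted p under 0.05, against 4.51%.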

How the data were processed

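Single-nucleus libraries (10x 3′ kit) were used, 2 of control and 2 of AgRP-Gq;POMC-Gi mice. The authors aligned reads to GRCm38/mm10 with Cell Ranger 7.0.0 and deposited raw UMI counts per gene and nucleus, and a metadata table made with Seurat 4.3.0 that holds cell types, clusters, quality calls and the percent of mitochondrial counts. Only nuclei with the authors' quality pass were kept, doublets were treated as the authors left them, and columns of per-sample values that were not used number 0. The 9 members and the 4 lists were chosen with earlier results of these data known.

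UMIs were summed per library and cell type or cluster. CPM, means and SDs are over libraries, and shares carry exact Clopper-Pearson 95% intervals, which cover counting error only. Groups were compared on summed counts with edgeR's quasi-likelihood test (TMM, genes detected in 5% or more of the nuclei, Benjamini-Hochberg over all genes of the fit; R 4.3.3, edgeR 4.0.16), in units with at least 5 nuclei in each library. Alternatives were DESeq2 1.42.0, other normalization and filters, a block for the replicate number, and leaving out 1 library at a time. A value of 0 allows up to 3 counts. Named were the 5 highest clusters and the 5 most alike genes of each subunit, the pairs past an adjusted p of 0.05 or else the 5 of lowest p, and list members called; a few of these are not reported here. Gene positions came from GENCODE vM21 (GRCm38). The chi-square over its degrees of freedom was 6.93 between control replicates and 30.1 between AgRP-Gq;POMC-Gi replicates over 12115 genes in neurons, so the replicates of a group differed by more than counting noise.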

Additional observations from a re-analysis of the deposited data

Results flagged for a closer look

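Barcodes without the authors' quality pass were used in no comparison and still held UMIs of the 9 subunits, above the limit that a count of 0 allows: 41.3 CPM in control replicate 1, 35.5 CPM in control replicate 2, 45.7 CPM in AgRP-Gq;POMC-Gi replicate 1 and 43.1 CPM in AgRP-Gq;POMC-Gi replicate 2. The nuclei that were kept held 38.4, 40.5, 45.1 and 44.5 CPM of them in the same order, and neurons held 57.5 to 62.7 CPM.

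The raw levels of *Chrna7* differed between the groups with opposite signs in 2 cell types, and neither difference passed its test. The log2 ratio of the mean CPM (AgRP-Gq;POMC-Gi over control) was -0.13 in neurons and 0.63 in astrocytes. The groups overlapped in neither type. The same held for 36.8% of genes with 10 or more UMIs in neurons and 37.4% of genes tested in astrocytes. With AgRP-Gq;POMC-Gi replicate 2 left out, the fitted log2 fold change in neurons was 0.03. The difference of the 2 effects was tested after its values were seen, with the library as a block, and was 0.76 ± 0.17 on the log2 scale (edgeR, unadjusted p = 0.00143, adjusted p = 0.168 over 7891 genes, 17 of them called and 760 with an unadjusted p under 0.05). *Chrna4* gave -0.40 in neurons and 0.50 in oligodendrocytes, where it rested on 53 UMIs, and that difference was not tested.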

How the results depend on the processing

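No call of a subunit in neurons or in single clusters arose under any alternative. In other cell types 1 pair, *Chrna7* in astrocytes, was called with no filter on genes (1 of 58 pairs tested) and 1 with the replicate block (1 of 2, adjusted p = 0.00777 by edgeR), against 0 as reported. The replicate numbers are not stated to mark a shared animal or day, and the correlation of same-numbered deviations in neurons was 0.18 over 12115 genes. The block changed no other call of a subunit, and over all genes in neurons it gave 168 calls against 0. Without AgRP-Gq;POMC-Gi replicate 2 there were 2044 calls in neurons, without any other library 4 to 25, and with DESeq2 10, none of them a subunit. Subunits highest in neurons numbered 2 by CPM, 6 by the unthinned share of nuclei, and 2 to 3 when a library was left out. Pairs of cluster and subunit at a share of 10% numbered 188, against 74 at 20%, 316 at 5% and 26 after thinning, so the count moved with depth; without a library they numbered 184 to 196. *Chrna4* clusters at a share of 10% numbered 7, or 12 with AgRP-Gq;POMC-Gi replicate 1 left out, and those of *Chrna3* 5, or 8 with replicate 2 of that group left out. The cause was not tested. The cluster of highest mean was first in 0 libraries for *Chrna4*, in 1 for *Chrna2*, *Chrna6* and *Chrnb2*, and in 2 or 3 of the 4 for the other subunits. Of 255 alternative values of r between subunits, 41 moved by at least the SD of r over single libraries.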

Other observations

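Cluster 170 (*Myo5b*/*Otof*), with fewer than 5 nuclei in a library, was outside the ranking of *Chrna7* and is given as values. It read 46.7, 297, 70.1 and 82.8 CPM in 42 nuclei, from 3, 8, 5 and 14 UMIs. The 297 CPM rested on 2 of 3 nuclei of control replicate 2.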
